A study of Mus musculus with 6 samples.

Results

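Glutathione synthesis and the oxidant defence genes that the transcription factor NRF2 is known to drive were followed through 10 genes, Slc7a11, Gclc, Gclm, Gss, Gsr, Gpx1, Gpx2, Nqo1, Srxn1 and Txnrd1, in mouse duodenum of 2 genotypes, wild-type and VDR-null. VDR-null mice lack the vitamin D receptor. The genes were listed by name. Each is represented by the probe set that the array annotation pairs with its symbol alone; Slc7a11 has 2 such sets, of which the brighter was used. All 10 had a probe set among the 22180 named genes. Gene expression was measured on Affymetrix Mouse Gene 2.0 ST arrays, 1 array per sample, in 3 wild-type and 3 VDR-null duodenum samples of 10-week-old mice, all of the C57Bl/6 background with no treatment named. Which VDR allele was targeted, the sex and the diet are not stated in the labels, and nothing in them ties a sample to a litter or batch. Values are log2 signals, so a difference of 1 is a doubling. They compare arrays for a given probe set and do not rank different genes by abundance.

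Glutathione is a tripeptide of glutamate, cysteine and glycine and the main soluble thiol of cells. Cystine enters through xCT, glutamate-cysteine ligase joins cysteine to glutamate, and glutathione synthetase adds glycine; peroxidases then spend glutathione on peroxides and glutathione reductase restores it with NADPH. NRF2 is held at low levels by KEAP1 until oxidants or electrophiles modify KEAP1, after which NRF2 with a small MAF partner binds antioxidant response elements near genes such as Gclm, Nqo1, Srxn1 and Txnrd1. In the duodenum these genes serve an epithelium exposed to bile, oxidised lipids and plant electrophiles.

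The promoter letters of Gclm, Txnrd1 and Srxn1 are shown because these 3 genes shared the same lowest and highest array and hold the letters of an antioxidant response element core, TGACNNNGC on either strand, near a start site. Sequences are RefSeq's, build GRCm38.p6, from windows of 250 bases before to 50 after an annotated start, which were at hand for 8 of the 10 genes in 10 windows (Txnrd1 has 3). Each is written 5′ to 3′ on the strand of the gene, the plus strand in all of them, with the matched letters in capitals. All 3 cores lie on the opposite strand, so the capitals show their reverse complement. The AP-1 letters, TGANTCA, are their own reverse complement, so these matches have no strand of their own.
Gclm core at chr3:122245403-122245451: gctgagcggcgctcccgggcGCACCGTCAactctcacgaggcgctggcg
Txnrd1 core at chr10:82859094-82859142: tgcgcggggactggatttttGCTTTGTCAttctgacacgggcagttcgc
Srxn1 core at chr2:152105542-152105570: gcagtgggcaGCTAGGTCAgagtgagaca
Srxn1 AP-1 letters at chr2:152105402-152105448: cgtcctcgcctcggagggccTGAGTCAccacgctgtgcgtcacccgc
Srxn1 AP-1 letters at chr2:152105459-152105505: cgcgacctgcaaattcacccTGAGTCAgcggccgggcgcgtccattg

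The Gclm core begins 134 bases before the start site and the Txnrd1 core 92 bases before it. The Srxn1 core begins 28 bases after the start, inside the transcribed region. Srxn1 also holds TGANTCA, the letters of an AP-1 site, at 102 and at 45 bases before the start. The core and the AP-1 letters can share bases where they coincide, but none of the matches shown overlaps another. Only the form TGACNNNGC was searched as a core. The AP-1 letters at 45 bases before the Srxn1 start are followed by GC. Together they read TGAGTCAGC, which departs from the searched core only by a G in place of the C after TGA. Such forms were not counted, so a core-like stretch that overlaps AP-1 letters can be missed. The core was present in 3 of the 10 windows and 3 of the 8 genes, against 12.4% of 32851 windows and 14% of 27025 genes of the whole table. AP-1 letters were present in 1 of the 8 genes, against 8.97% of all genes. Gss, which had the same lowest and highest array, and Nqo1 had a window without a core match. Gclc, also with these lowest and highest arrays, and Gsr had no window. Letters outside the windows were not searched. A match is a description of letters and not a binding site.

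The samples carry duodenal RNA by their markers, and 3 arrays stood apart. All 8 markers of the duodenum and proximal small intestine were bright enough to be tested, including the transcription factors Pdx1 and Gata4, while the ileal genes Fabp6 and Slc10a2 stayed below 5.17, the median of all values, on every array. Wild-type replicate 1 was the lowest array in 5 of these 8 markers, and their mean there was -0.75 from the 6-array level. The stomach gene Gkn2 read 6.65 on it and below 5.17 on the others. Whether all samples came from the same stretch of duodenum was not tested. The probe set of Vdr read 10.72, 10.95 and 11.11 on the wild-type arrays, against 10.99, 10.86 and 10.85 on the VDR-null arrays, so it did not separate the labelled genotypes; neither the deleted stretch nor the place of its probes is stated, and it checks nothing. Wild-type replicate 1 was the lowest and VDR-null replicate 1 the highest of the 6 arrays in all 17 tested markers of absorptive enterocytes and their brush border. VDR-null replicate 3 stood out in most pancreatic acinar transcripts, with Cpa1 at 10.11 against 5.55 to 6.78 on the other 5 arrays. Clps of the same list did not follow: it was highest on wild-type replicate 1, at 11.85, and read 11.49 on VDR-null replicate 3. No genes passed limma's Benjamini-Hochberg adjusted p of 0.05 across the 13174 tested genes (0%); 689, or 5.23%, had an unadjusted p below 0.05.

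The genes of glutathione synthesis did not differ between the genotypes beyond the spread of the arrays. Gclc, the catalytic subunit of glutamate-cysteine ligase and the rate-limiting step, read 8.78, 8.99 and 9.14 on the wild-type arrays, against 9.21, 8.99 and 8.91 on the VDR-null arrays. The groups overlapped almost fully, with wild-type replicate 1 lowest and VDR-null replicate 1 highest. The log2 difference was 0.06 ± 0.13 (SE; 95% confidence interval -0.25 to 0.37), with VDR-null minus wild-type as the direction for every difference given. The sign of Gclc turned when either replicate 1 array was left out, to -0.03 in both cases.

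Gclm, the modifier subunit that raises the efficiency of the ligase, read 9.13, 9.50 and 9.40 on the wild-type arrays, against 10.11, 9.58 and 9.26 on the VDR-null arrays. VDR-null replicate 1 stood above all other arrays, VDR-null replicate 3 lay below 2 of the wild-type arrays, and the groups overlapped. The difference was 0.31 ± 0.22 (SE; interval -0.22 to 0.84), or 1.24-fold. It was 0.20 without wild-type replicate 1 and 0.08 without VDR-null replicate 1. Gss, glutathione synthetase, read 7.95, 8.04 and 7.99 on the wild-type arrays, against 8.42, 8.09 and 8.001 on the VDR-null arrays. The wild-type values lay close together (SD 0.05, n = 3), and again VDR-null replicate 1 alone carried most of the higher mean. The difference of Gss was 0.18 ± 0.13 (SE; interval -0.12 to 0.48), and 0.05 without VDR-null replicate 1.

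Slc7a11, the light chain of the cystine importer xCT, was dim on all 6 arrays. It read 4.34, 4.06 and 3.95 on the wild-type arrays, against 4.05, 3.94 and 4.16 on the VDR-null arrays, and its second probe set stayed between 2.77 and 2.90. Signals at this height lie below the median of the table, where background limits them, so the gene was not tested and no size is given.

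The recycling enzyme and the tested peroxidase had differences close to 0. Gsr, glutathione reductase, read 10.08, 9.84 and 9.82 on the wild-type arrays, against 9.80, 9.96 and 10.00 on the VDR-null arrays. Here the order of the replicate 1 arrays was turned round: wild-type replicate 1 was the highest and VDR-null replicate 1 the lowest. Its difference was 0.0057 ± 0.11 (SE; interval -0.25 to 0.27), a fold change between 0.838 and 1.202, and a second quantile normalization turned its sign (-0.06). Gpx1, the cytosolic selenium-dependent peroxidase found in most cells, read 9.76, 9.83 and 9.70 on the wild-type arrays, against 9.56, 9.81 and 9.75 on the VDR-null arrays. VDR-null replicate 1 was again the lowest array. The difference of Gpx1 was -0.06 ± 0.10 (SE; interval -0.29 to 0.18), the only negative one among the 8 tested genes of the set, and 0.01 without VDR-null replicate 1.

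Gpx2, the peroxidase of the gastrointestinal epithelium, was dim by its probe set. Its values were 3.45, 3.87 and 3.68 on the wild-type arrays, against 4.03, 4.03 and 3.65 on the VDR-null arrays. The groups overlapped through VDR-null replicate 3, and the gene was not tested. The annotation names a second probe set for the pseudogene Gpx2-ps1, given here after its values were seen. It read 4.47, 4.82 and 4.91 on the wild-type arrays, against 5.22, 5.06 and 5.33 on the VDR-null arrays. The groups did not overlap, but 4 of the 6 values lay below the median of the table and the gene was not tested. Whether the probes of the gene and its copy share sequence was not examined, so neither level is certain to belong to its gene.

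**Figure D1:**
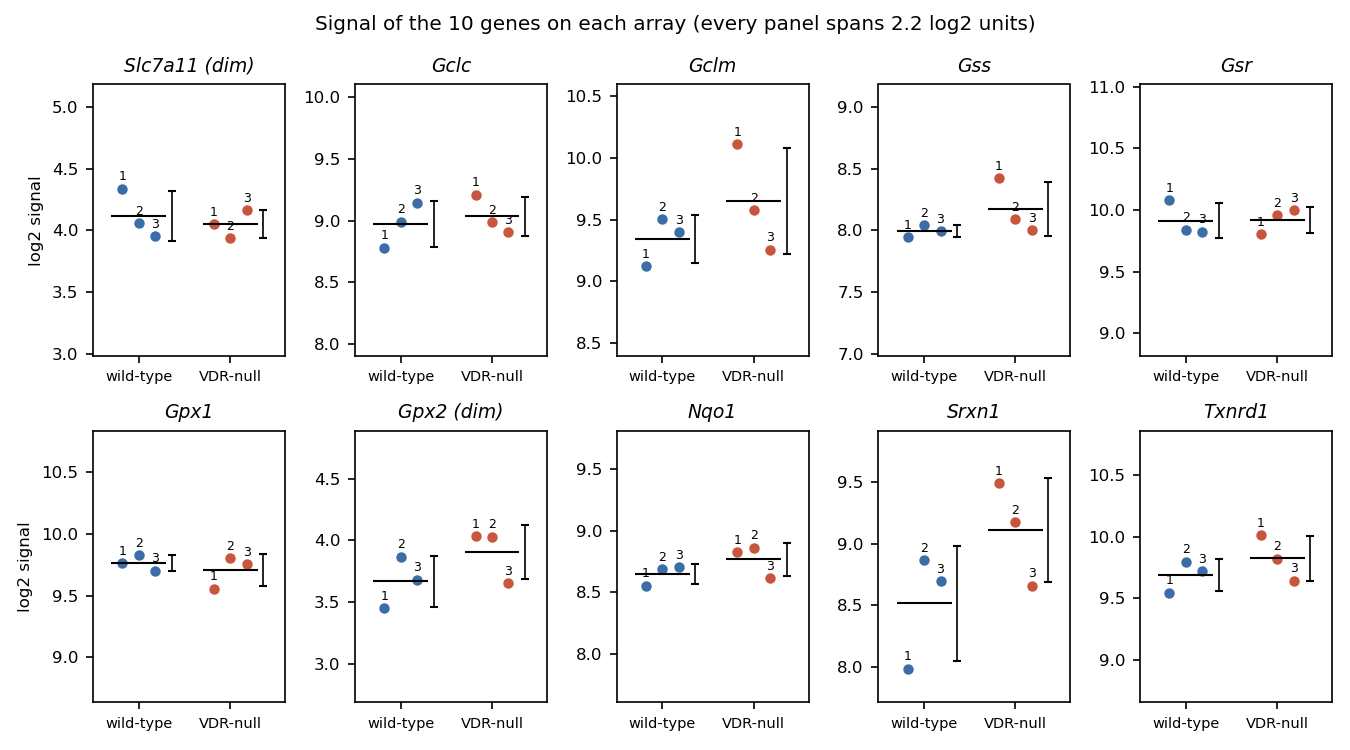
Log2 signal of each of the 10 genes on each array, wild-type in blue and VDR-null in red, with the replicate number above each point, a line at the group mean and a bar of 1 SD beside it (n = 3 per genotype). The groups overlap in every panel, and the widest spread is in Srxn1, from 7.99 to 9.49.

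Srxn1 had the largest difference among all tested members, and Nqo1 and Txnrd1 had small ones. Srxn1, sulfiredoxin, which restores overoxidised peroxiredoxins, read 7.99, 8.87 and 8.70 on the wild-type arrays, against 9.49, 9.18 and 8.66 on the VDR-null arrays. VDR-null replicates 1 and 2 lay above every wild-type array, whereas VDR-null replicate 3 lay below wild-type replicates 2 and 3. The VDR-null mean was 1.51-fold that of wild-type, with a 95% confidence interval from 0.941-fold to 2.42-fold (limma adjusted p = 0.683). A higher difference than that of Srxn1 was seen in 2.49% of all tested genes. The log2 difference of Srxn1 was 0.59 ± 0.29 (SE). Leaving out wild-type replicate 1 gave 0.33, leaving out VDR-null replicate 1 gave 0.40, and leaving out both gave 0.14.

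Txnrd1, the cytosolic thioredoxin reductase, read 9.55, 9.80 and 9.72 on the wild-type arrays, against 10.01, 9.82 and 9.64 on the VDR-null arrays. The groups overlapped, with the replicate 1 arrays at the ends. The difference was 0.14 ± 0.12 (SE; interval -0.16 to 0.43), 0.07 without wild-type replicate 1 and 0.04 without VDR-null replicate 1. Nqo1, the quinone reductase often used as a marker of NRF2 activity, read 8.55, 8.69 and 8.71 on the wild-type arrays, against 8.82, 8.86 and 8.61 on the VDR-null arrays. VDR-null replicates 1 and 2 lay above all wild-type arrays and VDR-null replicate 3 among them, the same arrangement as in Srxn1 on a much smaller scale. The difference of Nqo1 was 0.12 ± 0.10 (SE; interval -0.13 to 0.36), and 0.07 without wild-type replicate 1 or without VDR-null replicate 2.

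As a group, 7 of the 8 tested genes had a higher mean on VDR-null arrays and 1 a lower one, where 44% of all tested genes were higher (50.4% when each array is centred on its median). None of the 8 passed the limma threshold or had an unadjusted p below 0.05, and in none were the groups of arrays separate, against 11.1% of all tested genes with groups that did not overlap. The adjusted p lay between 0.683 and 0.987. The median difference was 0.13, beside -0.03 over all tested genes, and the differences ranged from -0.06 to 0.59. All 8 had all 6 arrays above the filter on dim genes, so none entered through a single genotype. Their median SD within a genotype, 0.16, was close to that of all tested genes, 0.15; it was 0.44 for Srxn1 and 0.34 for Gclm. Without both replicate 1 arrays the median difference was 0.02 and 5 of the 8 genes were higher.

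Several of the genes shared their lowest and highest arrays. Wild-type replicate 1 was the lowest array in 6 of the 8 genes (Gclc, Gclm, Gss, Nqo1, Srxn1 and Txnrd1), beside 19.6% of all tested genes. VDR-null replicate 1 was the highest in 5 of the 8 (the same genes without Nqo1), beside 24.4%. The arrays held both places in 5, beside 13.5%. Over all tested genes the opposite ends were more frequent. Wild-type replicate 1 was the highest array in 30.2% of them and in 1 of the 8. VDR-null replicate 1 was the lowest in 33.5% of them and in 2 of the 8. Relative to its mean over the arrays, Srxn1 stood at -0.83 on the first of these arrays and at 0.68 on the other. Gclm stood at -0.37 and 0.62 on these arrays, Gss at -0.14 and 0.34, and Txnrd1 at -0.21 and 0.26. Gsr and Gpx1 took the other direction on VDR-null replicate 1, at -0.12 and -0.18.

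The marker list of absorptive enterocytes moved with the same arrays. Measured from its own average it stood at 0.90 on VDR-null replicate 1, at -1.25 on wild-type replicate 1, at 0.37 on VDR-null replicate 2 and between -0.10 and 0.13 on the other 3, and all 17 tested markers were higher on VDR-null arrays, by a median of 0.66 and with none past the threshold. Cell division markers ran the other way, at 0.34 and -0.39 on the replicate 1 arrays, and all 14 tested markers were lower on VDR-null arrays (median -0.26, none past the threshold). Smooth muscle markers were lower in 9 of 9 (median -0.34, 0 past the threshold), goblet cell markers split 4 higher and 3 lower (median 0.0041), and leukocyte markers were higher in 7 of 8 (median 0.24, 0 past the threshold). In samples of whole tissue, fewer cells of a type and less RNA per cell cannot be told apart.

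When the brush border mean of each array entered the fit as a covariate, 4 of the 8 genes were higher and 4 lower on VDR-null arrays, and the median difference was -0.0035. Srxn1 then differed by 0.06, Gclm by -0.04, Gss by 0.05, Gclc by -0.12, Txnrd1 by -0.04, Nqo1 by 0.01 and Gpx1 by -0.02, while Gsr differed by 0.16. Leaving out both replicate 1 arrays gave 0.14 for Srxn1, 0.15 for Gsr, -0.12 for Gclc and -0.03 for Gclm and Txnrd1. The covariate takes its lowest and highest value on these arrays, so the alternatives are not independent of each other. The 4 tested pancreatic acinar markers had a mean of 2.27 above their 6-array level on VDR-null replicate 3 and between -0.87 and 0.20 on the other arrays. Among these 4, only Clps had its highest value elsewhere, on wild-type replicate 1. The other 4 with a probe set did not pass the filter over all arrays but were high on VDR-null replicate 3 too, with Cpb1 at 9.68, Cel at 9.05, Cela3b at 8.41 and Prss2 at 6.35. Without VDR-null replicate 3 the difference was 0.82 for Srxn1, 0.50 for Gclm, 0.26 for Gss, 0.23 for Txnrd1, 0.19 for Nqo1 and 0.13 for Gclc. It was -0.04 for Gsr and -0.08 for Gpx1. Unadjusted limma p was 0.025 for Srxn1 and 0.043 for Gclm, in a fit where 1569 of 13174 genes fell below 0.05. No adjusted p was below 0.05. The covariate was itself higher on VDR-null arrays (mean difference of its 17 tested markers 0.78). With 6 arrays, its part in these values cannot be told apart from that of genotype. The part of any cell type was not tested.

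**Figure D2:**
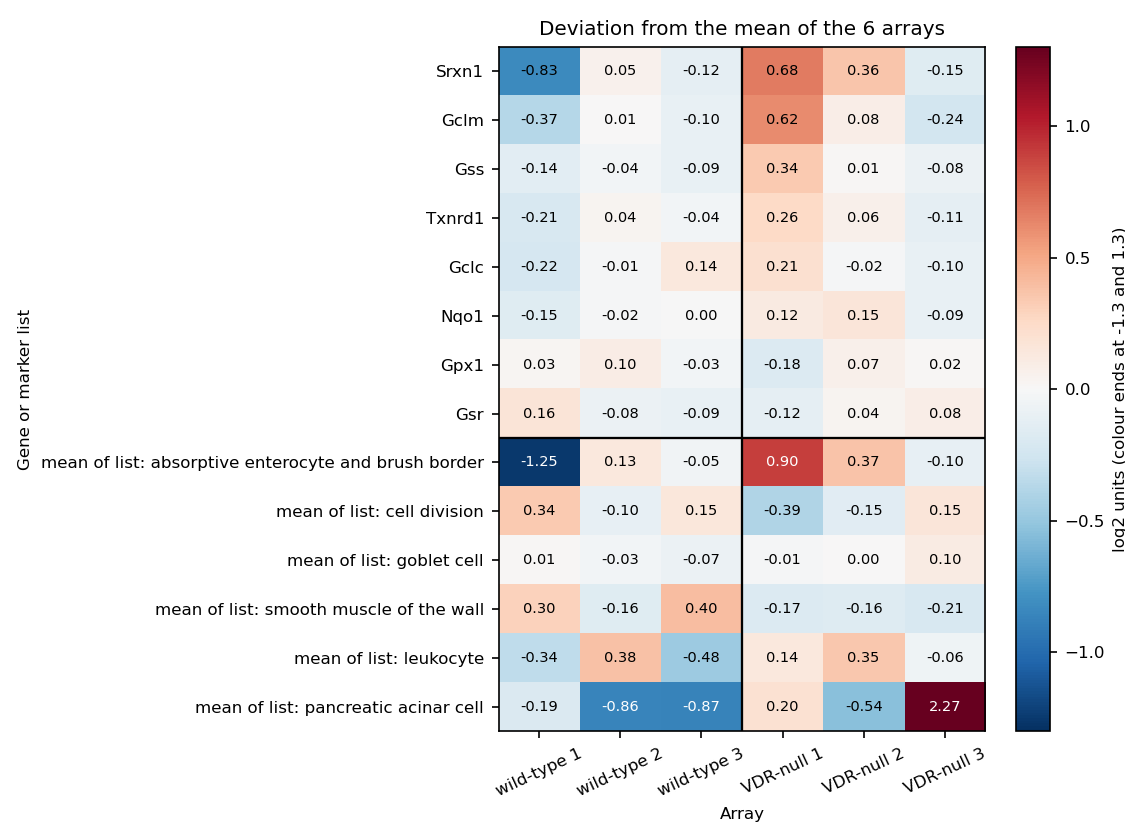
Deviation in log2 units from the mean of the 6 arrays, for the 8 tested genes (above the line) and the mean of the tested genes of 6 marker lists (below it), with 1 column per array. Srxn1, Gclm, Gss, Txnrd1 and Gclc are lowest on wild-type replicate 1 and highest on VDR-null replicate 1, as is the brush border mean (-1.25 and 0.90); Gsr has the opposite order.

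**Figure D3:**
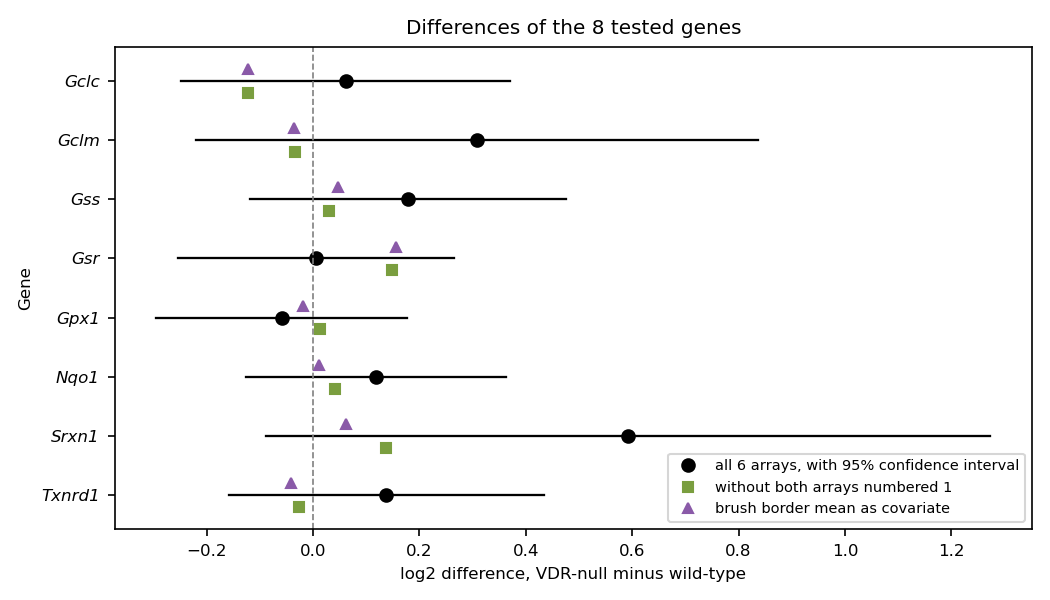
Log2 difference, VDR-null minus wild-type, of the 8 tested genes: circles with lines for all arrays and the 95% confidence interval of limma, squares without both arrays numbered 1, triangles after adjustment for the brush border mean. Every interval includes 0, and Srxn1 moves from 0.59 to 0.14 and 0.06 under the alternatives.

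The regulators of the pathway lay close to 0. Nfe2l2, which encodes NRF2, read 10.71, 10.89 and 10.84 on the wild-type arrays, against 10.98, 10.92 and 10.90 on the VDR-null arrays. All VDR-null arrays were above all wild-type arrays, by a small step: the difference was 0.12 ± 0.09 (SE; limma adjusted p = 0.690). Keap1, the repressor, read 7.47, 7.60 and 7.52 on the wild-type arrays, against 7.76, 7.49 and 7.49 on the VDR-null arrays and differed by 0.05 ± 0.11 (SE). Of the 9 tested genes of NRF2 and its regulators, 7 were higher and 2 lower, with a median of 0.05 and none past the threshold. Mafk, a small MAF partner, had the smallest unadjusted p and differed by 0.15 ± 0.10.

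The other known NRF2 targets were mixed. Of 11 tested genes 7 were higher and 4 lower (median 0.04), and none passed the threshold. Hmox1, heme oxygenase, read 5.24, 5.64 and 5.10 on the wild-type arrays, against 5.51, 5.75 and 5.34 on the VDR-null arrays, near the median of the table, with overlapping groups and a difference of 0.20 ± 0.17 (SE). Osgin1 differed by 0.55 ± 0.25, about as much as Srxn1, and Slc48a1, a heme transporter, by -0.27 ± 0.12 with groups that did not overlap. Cbr3, Akr1b8 and Aox1 were too dim to be tested.

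Among the pathway lists, that of glutathione breakdown and of cysteine or glutamate supply had the widest range, -0.41 to 1.08. The list of other glutathione peroxidases and glutaredoxins, which also holds the glyoxalases Hagh and Glo1, had 8 of 10 genes higher (median 0.12), with none past the threshold. Glrx3, a glutaredoxin that handles iron-sulfur clusters, differed by 0.26 ± 0.09 (SE) without overlap, and Hagh, glyoxalase II, by 0.37 ± 0.22. Of 15 tested genes of glutathione breakdown and of cysteine or glutamate supply, 10 were higher and 5 lower (median 0.03, mean 0.30). Again none passed the threshold. Ggt1 of this list had no probe set of a single symbol, and Chac1 was too dim to be tested. Slc3a2, the heavy chain that partners xCT and several other amino acid exchangers, read 10.45, 10.70 and 10.77 on the wild-type arrays, against 11.24, 11.03 and 10.84 on the VDR-null arrays. Its groups did not overlap, and its difference was 0.40 ± 0.14 (SE; limma adjusted p = 0.683). Lap3, a cytosolic leucine aminopeptidase, differed by 0.44 ± 0.13, also without overlap. This list too had its lowest mean, -0.40, on wild-type replicate 1, and its highest, 0.39, on VDR-null replicate 1; the mean difference was 0.06 without both.

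The measured part of the thioredoxin branch outside Srxn1 and Txnrd1 was split. The list of thioredoxins, peroxiredoxins and methionine sulfoxide reductases also holds Txnip and the sestrins Sesn1 and Sesn2. Its Prdx1, Prdx5 and Prdx6 had no probe set of a single symbol. Of its 13 tested genes, 6 were higher and 7 lower (median -0.01), none past the threshold. Msrb2 differed by -0.18 ± 0.10 (SE) and Sesn1 by 0.39 ± 0.28. Txn1, thioredoxin itself, read between 11.52 and 11.56 on all 6 arrays. In NADPH supply 4 of 7 genes were higher and 3 lower (median 0.10), with Taldo1 at 0.19 ± 0.12 and Nnt, the mitochondrial transhydrogenase, at -0.34 ± 0.15; G6pdx had no probe set of a single symbol. Superoxide dismutases and catalase were higher in 3 of 4 (median 0.09), with Cat at 0.36 ± 0.24 and Sod1 at 0.13 ± 0.09. Selenoproteins and the genes of their synthesis were higher in 9 of 14 (median 0.05), with Selenoh at -0.19 ± 0.10 and the selenophosphate synthetase Sephs2 at 0.28 ± 0.15. No gene of these 3 lists passed the threshold.

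**Figure D4:**
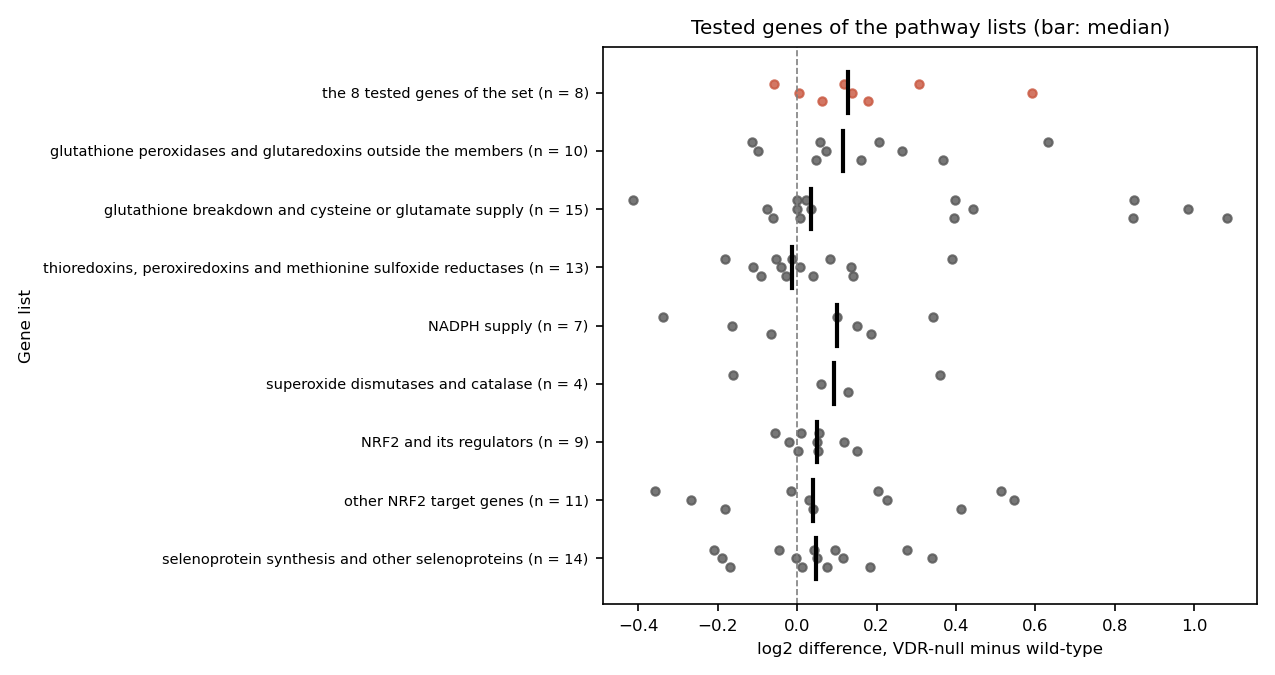
Log2 difference, VDR-null minus wild-type, of each tested gene in the set and in 8 pathway lists, with a bar at the median of each list. No point passed an adjusted p of 0.05; the medians lie between -0.01 (thioredoxins and peroxiredoxins) and 0.13 (the 8 genes of the set), and the widest range, -0.41 to 1.08, is in glutathione breakdown and amino acid supply.

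Outside the set, the 5 tested genes whose profile over the 6 arrays lay nearest to the mean profile of the 8 genes were Lsm14b, Slc25a13, Pik3c2a, Pgap4 and Lamp1. Nearness is the root mean square difference of values centred on each gene's mean, and it lay between 0.0164 and 0.0233 log2 units. The mean profile of the 8 genes was -0.22, 0.0055 and -0.04 on the wild-type arrays and 0.24, 0.10 and -0.08 on the VDR-null arrays. Lsm14b read 7.16, 7.38 and 7.29 on the wild-type arrays, against 7.61, 7.45 and 7.27 on the VDR-null arrays, with the same array lowest and the same highest.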

How the data were processed

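Total RNA of 6 duodenum samples was labelled and hybridised per the labels' protocols. The authors deposited log2 signals from RMA, for which the submitters' processing notes name Affymetrix Expression Console without a version. RMA corrects background, equalises the distributions of the arrays it is given and summarises probes, so a shift common to all genes is removed; whether all 6 arrays were given together is not stated. Array medians lay between 5.15 and 5.19. The number of arrays limits the precision. The design text gives 3 mice per genotype, so p-values measure the spread between animals.

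Of 41345 probe sets, 23521 had a single symbol. The brightest of them by mean stood for each of 22180 genes, and 13174 genes with at least 3 of 6 arrays above the median of the table, 5.17, entered 1 two-sided limma fit without covariates (limma 3.58.1, R 4.3.3), with Benjamini-Hochberg adjustment over all of them. Alternatives were other filters, normalizations and priors, array weights, a replicate block, all probe sets of a gene averaged, arrays left out and a brush border covariate. The procedure was tested on simulated data. The genes, lists and alternatives were chosen with earlier results of these data known. Named genes were all members, Nfe2l2, Keap1, Hmox1 and G6pdx, from each pathway list the 2 genes with the smallest unadjusted p, region markers and the 5 nearest profiles. Txn1 and the pancreatic genes, Cpa1 and Clps among them, were named after their values were seen. None of the 7 blood markers had a probe set of a single symbol. Besides the pathway genes named above as without one, Esd, Rbx1, Ftl1 and Tkt had none either. In the stomach list 4 of 6 genes were dim, with Gkn2 at 6.65 on wild-type replicate 1.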

Additional observations from a re-analysis of the deposited data

How the results depend on the processing

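None of the tested genes of the set passed an adjusted p of 0.05 under any of the alternatives, nor at 0.10 in the fit of all arrays. The adjusted p of single genes ranged from 0.215 to 1.00. Of the 19 alternatives, 7 (the filters, both eBayes settings, the replicate block and the averaged probe sets) leave each difference as it is by construction. Under the others, 79 of 96 differences kept their direction and 17 turned. A second quantile normalization gave -0.060 for Gsr. Array weights gave -0.050 for Gclc and 0.039 for Gpx1. Without both arrays numbered 1 the values were -0.12 for Gclc, -0.033 for Gclm, 0.013 for Gpx1 and -0.027 for Txnrd1. With the brush border covariate they were -0.12 for Gclc, -0.036 for Gclm and -0.041 for Txnrd1, and 4 genes rather than 7 were higher. Leaving out single arrays gave -0.034 to 0.15 for Gclc, -0.040 to 0.089 for Gsr and -0.11 to 0.015 for Gpx1. Gss, Nqo1 and Srxn1 kept their direction in each alternative that could move it. The cause of these turns was not tested.

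No pairing by replicate number is stated, and none was seen: the correlation of same-numbered arrays' deviations over genes was -0.62, 0.19 and -0.26. Wild-type replicate 1 and VDR-null replicate 3 reached 0.68. Differences between arrays of this size could hide a shared effect, so these values cannot show that no pairing exists. In this balanced design a replicate block changes the errors and not the differences, so the median of 0.13 and the 7 higher genes under the replicate block are no check; 0 genes of the set passed with it. Across all genes 0 passed the adjusted threshold in every fit. The count at an unadjusted p below 0.05, 689 in the fit of all arrays, was 2718 with array weights, 1278 with no filter, 338 with the replicate block, 435 with the brush border covariate, 372 without both arrays numbered 1, and 284 to 1569 without single arrays. Signals below the table's median limit what can be said of Slc7a11 and Gpx2.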
